A study of Mus musculus with 25 samples.

Results

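The regions described here are 1166 genomic sites at which TCF-1 peaks were called in a DN3 T cell precursor line and in fibroblasts made to express TCF-1, and at which CTCF peaks were called in the DN3 line. They were chosen by measured values. The peaks of both DN3 TCF-1 lists (4978 and 5356 peaks) were merged into 7161 regions, of which 3107 overlapped both lists. A fibroblast TCF-1 peak (39489 in that list) overlapped 2416 of these by at least 1 bp, and 1166 of the 2416 also overlapped a peak in both CTCF lists of the DN3 line with an empty vector. The 1166 sites are 37.5% of the 3107 DN3 TCF-1 sites and 48.3% of the shared ones. Presence in these 5 lists is 100% by the rule and is no finding.

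The study examined how TCF-1 takes part in the refolding of the genome as T cells develop, by chromatin immunoprecipitation with sequencing in 2 mouse cell lines. The DN3 cells are Scid.adh, a line from a thymic lymphoma and a model of precursors at the DN3 stage, with an empty vector or with a knockout of TCF-1. For CTCF, SMC1, NIPBL and H3K27ac there were 2 lists of peaks per condition, and for TCF-1 there were 2 lists of the empty vector cells. The fibroblasts are NIH-3T3, a line from mouse embryos, untreated or with TCF-1 induced, with 2 CTCF lists and 1 SMC1 list per condition and 1 TCF-1 list of induced cells. The labels do not say how many clones the knockout comes from, how TCF-1 was induced or whether replicates came from separate cultures, so the spread between lists may be technical. Both lines are established lines kept in culture. TCF-1 lists of knockout and untreated cells were not analysed here, so its absence there is taken from the labels. The lists give no read totals, so depth is unknown and a missing peak is only a peak that was not called. The H3K27ac lists of the DN3 line had a peak within 1 kb of an end of 12 of 12 T cell precursor marker genes in each of the 4 lists. Of the 8 B cell markers 1 or 2 had one, of the 8 myeloid markers 1 or 2, and of the 10 fibroblast markers 1.

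TCF-1, the product of Tcf7, is an HMG box transcription factor that early T cell development requires, and it binds short TCF letters in DNA and partners with beta-catenin in Wnt signalling. CTCF is a zinc finger protein that stops cohesin, the ring complex with the subunit SMC1, as it extrudes chromatin loops. NIPBL loads cohesin, often at active promoters, and H3K27ac is an acetylation of active promoters and enhancers. CTCF binds many places far from genes, but also promoters rich in CpG.

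These sites were mostly promoters, and the sequence in front of gene starts shows what such a site looks like. The 250 bases before the annotated start are printed below for 6 genes whose window lies at a site, from RefSeq (GRCm38.p6), 5′ to 3′ on the strand of the gene. Capitals mark the TCF core (CTTTGA), the CTCF core (AGGNGGC), longer CTCF letters (AGGGGGCGC) and the ETS letters (CCGGAAG), on either strand. A match is a description and not a bound site. Rmi1, for a subunit of the complex that dissolves crossed DNA strands (chr13:58401998-58402247, + strand), and Ube2d3, for a ubiquitin-conjugating enzyme (chr3:135437982-135438231, + strand), lie at the highest-ranked sites, the rank of a site being the lowest of its percentile ranks by width in the 3 TCF-1 lists. Denr, for a translation reinitiation factor (chr5:123907025-123907274, + strand), Nrbf2, for an autophagy factor (chr10:67285282-67285531, - strand), and Nol9, for a nucleolar kinase of ribosomal RNA processing (chr4:152039071-152039320, + strand), are the highest-ranked sites with the longer CTCF letters. Kmt5b, for a histone H4 lysine methyltransferase (chr19:3767639-3767888, + strand), is the highest-ranked site with CTCF called only with the empty vector.
Rmi1: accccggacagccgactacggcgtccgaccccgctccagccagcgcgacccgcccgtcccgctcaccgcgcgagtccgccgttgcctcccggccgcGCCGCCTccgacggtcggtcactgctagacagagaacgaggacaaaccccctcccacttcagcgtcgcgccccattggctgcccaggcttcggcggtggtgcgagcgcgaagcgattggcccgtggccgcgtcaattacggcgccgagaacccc
Ube2d3: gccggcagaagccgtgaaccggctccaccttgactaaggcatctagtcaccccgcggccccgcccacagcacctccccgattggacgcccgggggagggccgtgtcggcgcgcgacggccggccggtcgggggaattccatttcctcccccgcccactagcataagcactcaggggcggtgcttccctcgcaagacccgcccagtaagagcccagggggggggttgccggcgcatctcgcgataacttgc
Denr: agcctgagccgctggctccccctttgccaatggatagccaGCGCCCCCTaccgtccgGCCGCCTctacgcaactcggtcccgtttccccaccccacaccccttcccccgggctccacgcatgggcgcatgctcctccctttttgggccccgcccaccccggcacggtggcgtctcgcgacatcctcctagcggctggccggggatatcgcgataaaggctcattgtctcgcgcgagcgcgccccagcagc
Nrbf2: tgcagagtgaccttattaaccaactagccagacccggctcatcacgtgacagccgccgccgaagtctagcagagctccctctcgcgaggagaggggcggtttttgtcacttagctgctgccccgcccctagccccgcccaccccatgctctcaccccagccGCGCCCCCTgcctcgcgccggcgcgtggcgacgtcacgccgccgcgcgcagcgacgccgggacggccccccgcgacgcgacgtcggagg
Nol9: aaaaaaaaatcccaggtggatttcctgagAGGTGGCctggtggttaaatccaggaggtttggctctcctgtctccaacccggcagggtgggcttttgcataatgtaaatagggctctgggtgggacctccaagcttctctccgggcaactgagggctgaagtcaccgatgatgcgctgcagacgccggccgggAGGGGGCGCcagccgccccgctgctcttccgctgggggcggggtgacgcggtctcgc
Kmt5b: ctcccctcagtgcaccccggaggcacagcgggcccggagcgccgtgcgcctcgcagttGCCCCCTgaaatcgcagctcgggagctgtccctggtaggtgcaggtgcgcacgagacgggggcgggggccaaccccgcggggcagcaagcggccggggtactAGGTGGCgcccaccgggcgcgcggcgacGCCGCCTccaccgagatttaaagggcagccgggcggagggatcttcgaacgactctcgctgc
None of the 6 windows held the TCF core or the ETS letters. Kmt5b held 3 CTCF cores, Denr and Nol9 held 2 each, Rmi1 and Nrbf2 held 1 each, and Ube2d3 held 0. The windows held between 15 CpG dinucleotides (Nol9) and 39 (Rmi1), and their GC content ran from 62% (Nol9) to 73.2% (Kmt5b).

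Over all promoters at the sites, CTCF letters were more frequent than in the sets they were set beside, and the TCF core was not. A promoter was counted where at least 150 of its 300 bases (250 before and 50 after the start) lay inside a site, which gave 879 promoters of 785 genes. For comparison, 491 promoters lay at the 701 shared TCF-1 sites without CTCF in either empty vector list, 9474 had H3K27ac in both empty vector lists, and the table held 21263 in all. The CTCF core was found in 49.4% of the promoters at the sites, against 36.9% at shared sites without CTCF, 40.6% of the acetylated promoters and 33.6% of all promoters. The longer CTCF letters were in 4.78%, against 1.43%, 2.27% and 1.70%. The longer letters contain the core, so these counts overlap. The TCF core was in 9.90% of the promoters at the sites, 10.2% at shared sites without CTCF, 11.4% of acetylated and 14.4% of all promoters. With a further T and then any base (CTTTGATN) the shares were 2.39%, 2.24%, 2.53% and 3.19%. This says only which letters the windows hold, and no share was tested. The sites were chosen for CTCF peaks, and the shared sites without CTCF for having none. Part of the difference in CTCF letters may thus be built in.

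Other letters differed in both directions, and base composition differed with them. The ETS letters were in 27.1% of the promoters at the sites, 31.0% at shared sites without CTCF, 21.7% of acetylated and 11.6% of all promoters. The letters of NRF1, an activator of genes for respiration (GCGCNTGCG), were in 21.0%, 17.7%, 16.0% and 8.61%. Those of the SP and KLF factors (GGGGCGGGG) were in 26.8%, 20.6%, 22.6% and 15.4%. The letters of NFY (GATTGGC) were in 10.5%, 13.4%, 11.1% and 8.37%, and those of YY1 (AAGATGGCG) in 4.78%, 7.54%, 3.78% and 1.83%. For ZNF143 (ACTACAA) the shares were 5.69%, 7.54%, 4.86% and 3.598%. The letters of RUNX factors (TGTGGTT) were in 2.84%, 4.48%, 3.63% and 4.71%, and those of AP-1 (TGANTCA) in 3.07%, 2.85%, 4.16% and 6.99%. Median GC content was 65.3% at the sites, 62.0% at shared sites without CTCF, 61.3% in acetylated and 56.3% in all promoters, with medians of 28, 25, 22 and 13 CpG. Among promoters of 60 to 70% GC only, the CTCF core was in 50.7% of 412 promoters at the sites, 43.2% of 222 without CTCF, 46.6% of 3717 acetylated and 47.8% of all 5635. The longer CTCF letters were in 6.31%, 1.80%, 2.93% and 2.96% there, the TCF core in 10.2%, 7.21%, 7.99% and 8.11%, and the longer TCF letters in 3.40%, 0%, 1.59% and 1.53%. Within that GC range both TCF patterns were thus more frequent at the sites than in each of the 3 comparison sets, which for the core is the opposite of the order over all GC contents. The longer TCF letters were in at most 3.40% of any set there, so at the sites and at shared sites without CTCF their shares rest on few promoters. The shares of the CTCF core lay closer together in that range than over all GC contents, where they ran from 33.6 to 49.4%.

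Most of the sites lay at a gene end. An end of a protein-coding gene lay within 1 kb of 932 sites (79.9%), and 772 of them (66.2% of all) covered it. Another 160 (13.7%) lay inside a gene away from its ends and 74 (6.35%) between genes. For comparison, an end lay within 1 kb of 78.3% of the shared sites without CTCF, of 31.8% of the 220 DN3 sites with CTCF but no fibroblast TCF-1, and of 14.6% of the 40103 empty vector CTCF regions. An annotated start lay within 1 kb of 843 sites (72.3%). At 95 of these (11.3%) starts of different genes lay on opposite strands, and their order was not checked. The sites were 205 to 2219 bp wide, with a median of 524.5 bp.

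The peaks were centred close to the start. The stretch that all 5 lists of the rule share existed at 1100 sites (94.3%), with a median of 243 bp, and its centre lay within 1 kb of an annotated start at 790. The median position of the centre was -14.5 bp, just upstream of the start, with quartiles of -97.75 and 73.75 bp, and 87.1% of the centres were within 250 bp. Centres of the 2 DN3 TCF-1 lists were a median of 47.5 bp apart, and those of DN3 and fibroblast TCF-1 67.25 and 65.5 bp. TCF-1 and CTCF centres with the empty vector were 108 and 118.25 bp apart, while the CTCF centres of the 2 empty vector lists were 57.25 bp apart. In induced fibroblasts, TCF-1 and CTCF centres were 192.5 and 200.5 bp apart over the 994 and 913 sites held by each CTCF list. The rule requires overlap in the DN3 lists and not in fibroblast CTCF, so these distances are not alike in how they were chosen.

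**Figure D1:**
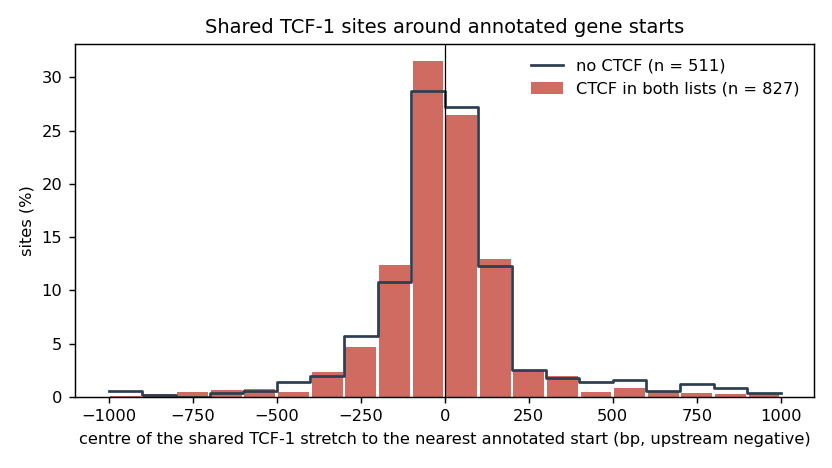
Histogram of the distance in bp from the nearest annotated gene start to the centre of the stretch shared by the TCF-1 peaks, in bins of 100 bp, as a percentage of sites. Red bars are the sites with CTCF (n = 827) and the dark line the shared sites without it (n = 511). Both peak at the start, with 31.6% of the red sites in the 100 bp upstream and 26.5% in the 100 bp downstream.

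The sites lay within 1 kb of an end of 1092 genes, 4.99% of 21900 protein-coding genes. Of the sites, 173 (14.8%) lay that near to ends of at least 2 genes. Tbc1d10b, for an activator of Rab GTPases, had 3 sites, the most of any gene, and 17 others had 2 each. Among these were Trp53, for the tumour suppressor p53, and its divergent neighbour Wrap53, which shared 2 sites (chr11:69578982-69579636 and chr11:69580177-69580516). Klf16, for a zinc finger factor, Smarcc2, for a subunit of a chromatin remodeller, and Sap130 and Rcor3, for corepressor subunits, also had 2. Histone genes H2ac20, H2ac21 and H2bc21 had 2 each from the same cluster, so these counts share sites. Long noncoding RNA genes overlapped 152 sites, tRNA genes 8 and miRNA genes 4, the latter being Mirlet7i, Mir762, Mir5122 and Mir8105.

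The genes with a site came from many processes that every cell uses, splicing, translation, replication and histone modification among them. A gene whose end lay within 1 kb of a site was counted for each list, beside the 4.99% of all genes and the 10.7% of the 10210 genes with H3K27ac within 1 kb of an end in both empty vector lists. Spliceosome genes reached 8 of 41, among them Hnrnpk and Hnrnpu, for RNA-binding proteins, Cdc5l, for a core splicing factor, and Sf3b2, for a subunit of the splicing complex. Genes of the cytosolic ribosome reached 9 of 60, including Rps19, Rpl4, Rpl10a, Rpl26 and Rps15. DNA replication genes reached 5 of 34, with Rfc5, Rfc3 and Rfc4 of the clamp loader, Mcm7 of the helicase and Gins4. Histone modifiers and remodellers reached 7 of 32, with Kmt2a and Kmt2b, methyltransferases of histone H3, the acetylase Ep300 and the deacetylase Hdac2. Mitochondrial ribosome genes reached 6 of 63, oxidative phosphorylation genes 5 of 72 and proteasome genes 2 of 31. Among the acetylated genes of these lists the shares were 10.2%, 7.14% and 6.45%, each under the 10.7% of all acetylated genes. Of 14 housekeeping genes 2 had a site, Rplp0 and Pgk1. No list was tested, the lists were chosen with earlier results known, and 1090 of the 1092 genes with a site had acetylated ends.

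T lineage regulators had a site at 3 of 19 genes, Tcf7 itself and Tcf3 and Tcf12, which encode E proteins. T cell receptor and signalling genes reached 1 of 25 (4%), Fyn, for a Src family kinase, near the share of all genes. Of the 23 of them with acetylated ends 4.35% had a site, under the 10.7% of all acetylated genes. Notch pathway genes reached 0 of 11, or 0 of the 8 that were acetylated. Wnt genes reached 4 of 18, or 4 of the 10 that were acetylated: Ctnnb1, for beta-catenin, Tle3, for a Groucho corepressor that TCF-1 recruits, Znrf3, for a ligase that removes Wnt receptors, and Myc, for a growth regulator. The list of cohesin, its loader and CTCF, which also holds Yy1 and Zfp143, for factors linked to promoter contacts, reached 4 of 17. These were Ctcf itself, Pds5a, for a cohesin regulator, Yy1 and Zfp143. B lineage genes reached 0 of 12 and fibroblast genes 0 of 20, and of 12 myeloid genes only Cebpb, for a factor that many cell types use, had a site. Among acetylated genes these counts were 0 of 5, 0 of 4 and 1 of 3, too few to set beside the 10.7% of all acetylated genes. The shared sites without CTCF lay within 1 kb of an end of 675 genes, 3.08% of all. They reached 0 of 19 T lineage regulators, 1 of 18 Wnt genes and 2 of 17 genes of the cohesin and CTCF list. They also reached 8 of 32 histone modifiers, 7 of 34 replication genes, 4 of 14 housekeeping genes and 10 of 72 oxidative phosphorylation genes, more of each than the sites with CTCF did. The same held for mitochondrial ribosome genes (9 of 63) and proteasome genes (4 of 31). Spliceosome genes (5 of 41) and cytosolic ribosome genes (7 of 60) were fewer.

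**Figure D2:**
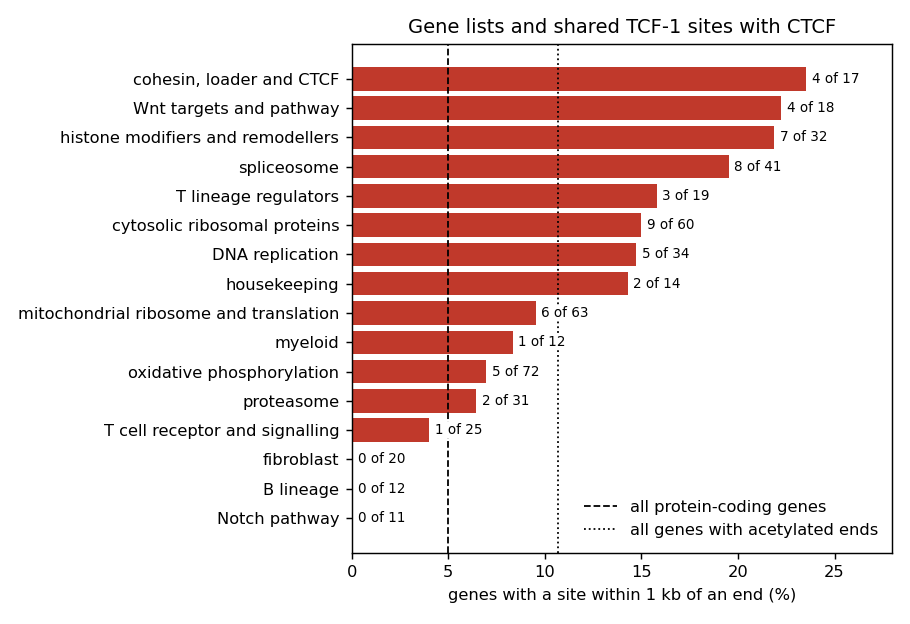
Bars give the percentage of the genes of each list with a site within 1 kb of an end, and the labels give the counts. The dashed line marks all protein-coding genes (4.99%) and the dotted line all genes with acetylated ends (10.7%). The cohesin and CTCF list (4 of 17), which also holds Yy1 and Zfp143, has the longest bar.

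Of the 20 lists that the rule did not use, the sites were in a median of 19. All 20 held 533 sites (45.7%), while 197 sites were in 19, 135 in 18 and 98 in 17. Of the shared sites without CTCF 3 of 701 (0.428%) were in all 20, and of the DN3 sites with CTCF and no fibroblast TCF-1 28 of 220 (12.7%). Among the 633 sites that were not in all 20, a fibroblast CTCF list was missing at 461, a NIPBL list at 237, a knockout CTCF list at 131 and an H3K27ac list at 20. A fibroblast SMC1 list was missing at 15 and a DN3 SMC1 list at 5. Part of the contrast with sites without CTCF is built in, because the rule asks for DN3 CTCF and 6 of the 20 lists are CTCF lists.

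**Figure D3:**
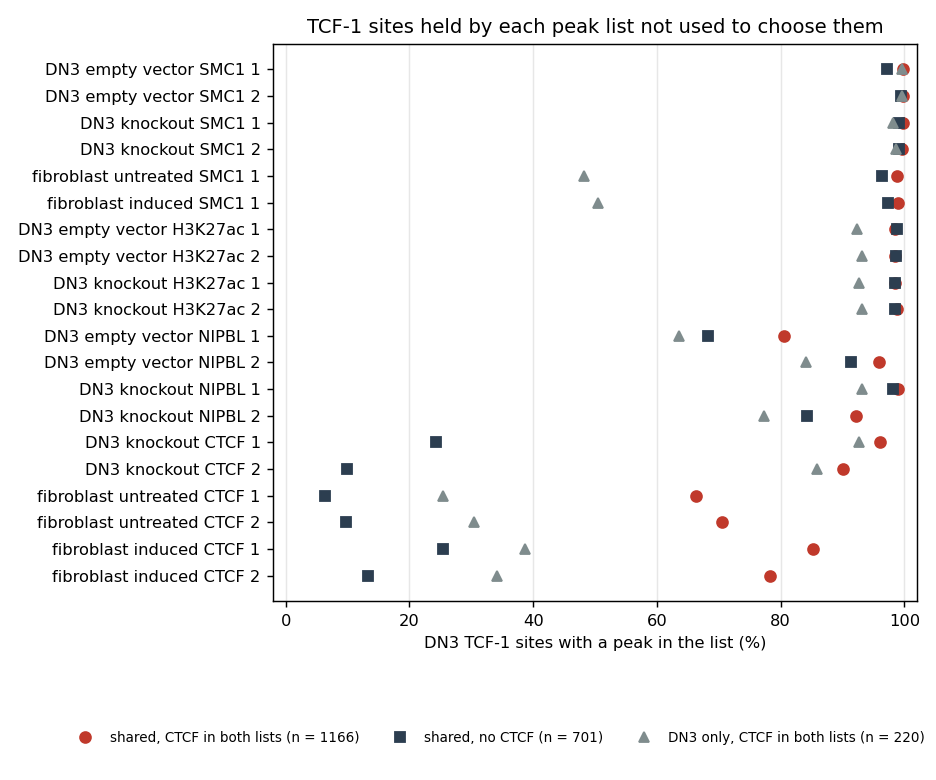
Each row is a peak list that was not used to choose the sites, and the horizontal axis is the percentage of sites with a peak in it. Red circles are the 1166 sites, dark squares the 701 shared sites without CTCF and grey triangles the 220 DN3 sites with CTCF and no fibroblast TCF-1. The sets lie together in the DN3 SMC1 lists. All 3 lie apart in the fibroblast CTCF lists, while in the knockout CTCF lists the dark squares are apart (24.3 and 9.99%) and the grey triangles (92.7 and 85.9%) lie near the red circles (96.1 and 90.1%).

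Cohesin was called at almost every site in all conditions. SMC1 lists of the empty vector held 99.7% and 99.8% of the sites and those of the knockout 99.7% and 99.6%, a difference of -0.129 percentage points (2-sided exact permutation over lists, p = 0.667). Fibroblast SMC1 held 98.8% untreated and 99.0% induced, with 1 list per condition and no test. Fibroblasts without induced TCF-1 thus had SMC1 peaks at nearly all of these places. At shared sites without CTCF the fibroblast lists held 96.4% and 97.3%, and over all DN3 TCF-1 sites 82.2% and 82.9%. At DN3 sites with CTCF and no fibroblast TCF-1 they held 48.2% and 50.5%. The high fibroblast share was thus not particular to the sites with CTCF. The DN3 SMC1 lists held 98.4% and 99.1% of all DN3 TCF-1 sites with the empty vector, against 98.5% and 98.6% in the knockout. The median SMC1 peak at a site was 1124 and 1188 bp wide with the empty vector, against 1361 and 1387 bp in the knockout. Over each whole list the median width was 394, 380, 407 and 405 bp. At shared sites without CTCF the medians were 774, 896, 1022 and 1044 bp, narrower than at the sites with CTCF in each of the 4 lists. No site had SMC1 in both lists of 1 DN3 condition and none of the other. Of all merged DN3 SMC1 regions 0.969% were called only in cells with TCF-1 and 9.26% only in cells lacking it, and of all 3107 DN3 TCF-1 sites 0.354% and 0%.

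Sites without fibroblast SMC1 were few. The site was in neither fibroblast SMC1 list in 11 cases, and 4 of the 15 sites missing from at least 1 of them were within 1 kb of a gene end. The 11 were chosen after their values were seen: they were named by Tcf7, Lef1 (for the close relative of TCF-1, 95646 bp away), Il22 (for a cytokine, 9034 bp away), Itga2, Klf10, Tuba1b, Rpl41, Cirbp, Mknk2, Zfr2 and Aldh1a3. Rpl41 (chr10:128548796-128549286) was in 8 of the 20 lists, the fewest of any site, and no SMC1 list of either line held it. Its H3K27ac peaks had folds of 7.52 and 7.16 with the empty vector, against 6.35 and 6.83 in the knockout. The Lef1 site (chr3:131014043-131014651) had CTCF peaks of 340 and 290 bp with the empty vector, against none in the knockout. Its H3K27ac folds were 3.56 and 3.08 with the empty vector, against 4.89 and 3.84 in the knockout. In fibroblasts only the TCF-1 list held it.

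Tcf7 is the gene knocked out in the DN3 line, and its site (chr11:52282885-52283567, 683 bp, over the gene end) was held by DN3 lists and not by the CTCF and SMC1 lists of fibroblasts. All 14 DN3 lists outside the rule held it and none of the 6 fibroblast CTCF and SMC1 lists did. SMC1 peaks were 5187 and 3127 bp wide with the empty vector, against 4370 and 5717 bp in the knockout. CTCF peaks were 544 and 479 bp against 490 and 788 bp. The authors' NIPBL folds were 8.13 and 5.11 against 5.65 and 4.0, and the H3K27ac folds 6.44 and 5.88 against 5.68 and 5.79. The widths of SMC1 and CTCF peaks overlapped between the conditions, and folds of different lists are not compared. In the labelled knockout, chromatin marks at the gene itself were thus still called.

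Acetylation was called at nearly all sites and was strong. H3K27ac lists held 98.5% and 98.5% of the sites with the empty vector, against 98.5% and 98.8% in the knockout, a difference of 0.214 percentage points that has the smallest p these lists allow (2-sided exact permutation, p = 0.333). Over all DN3 TCF-1 sites the lists held 96.9 to 97.0%, and the difference was 0 points. At shared sites without CTCF the mean shares were 98.8% with the empty vector and 98.4% in the knockout. The difference there was -0.357 with the same exact permutation p of 0.333. At the sites with CTCF the sign was not stable: the difference was -0.066 with a 50% overlap, -0.0648 with peaks above the median strength and -0.13 with TCF-1 in either list. The median fold of the peaks at the sites was 7.63 and 7.82 with the empty vector, against 7.37 and 7.23 in the knockout. The medians of the whole lists were 3.33 and 3.28 against 3.36 and 3.33. At shared sites without CTCF they were 7.995 and 8.08 against 7.80 and 7.54. Only 3 sites (0.257%) were called in both lists of 1 condition and none of the other, all of them without TCF-1: near Klhl31 (chr9:77596311-77596666, 40066 bp from the gene end), Gbf1 (37212 bp) and Aldh1a3 (10473 bp). Of all merged H3K27ac regions 7.99% were called only in cells with TCF-1 and 4.83% only in cells lacking it, and of all DN3 TCF-1 sites 0.386% and 0.354%.

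NIPBL was called at most sites, and the shares differed widely between the replicate lists of the empty vector. With the empty vector the lists held 940 sites (80.6%) and 1118 (95.9%), and in the knockout 1154 (99.0%) and 1074 (92.1%). The conditions overlapped, with means of 88.3% ± 10.8 (SD, n = 2) and 95.5% ± 4.85 (SD, n = 2), a difference of 7.29 percentage points (2-sided exact permutation, p = 0.667). Without the first empty vector list the difference was -0.343. Over all DN3 TCF-1 sites the lists held 71.7% and 90.0% with the empty vector, against 96.5% and 85.3% in the knockout. The shares followed the length of the lists, which was 9206 and 15232 peaks against 23951 and 14107. All 4 lists held 929 sites (79.7%), and 0 sites were called only with TCF-1 or only without it. That count depends on the processing: 11 sites were called only without TCF-1 with a 50% overlap, 13 with peaks above the median strength and 16 with TCF-1 in either list, and at equal list length 3 were called only with it and 13 only without it. Of all merged NIPBL regions 0.251% were called only in cells with TCF-1 and 5.88% only in cells lacking it, and of all DN3 TCF-1 sites 0.0966% and 1.64%. The median NIPBL fold at the sites was 2.73 and 3.38 with the empty vector, against 4.19 and 2.89 in the knockout, beside 2.94, 3.30, 3.50 and 3.08 for the whole lists.

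The 12 sites of highest rank lay within 1 kb of a gene end in 9 cases. Rmi1 shares its site with Hnrnpk (chr13:58401328-58403226), where H3K27ac folds were 11.1 and 11.2 with the empty vector, against 11.8 and 11.0 in the knockout. Its NIPBL folds were 3.31 and 3.63 against 4.77 and 3.36. Ube2d3 (chr3:135437845-135439500) had narrow CTCF peaks of 215 and 384 bp with the empty vector, 260 bp in the first knockout list and none in the second. Eif4a2, for a translation initiation helicase (chr16:23107161-23108927), Bzw1, for a regulator of start codon choice (chr1:58392186-58393768), and Rbm39, for a splicing factor (chr2:156179385-156180779), were in all 20 lists. So were Bend3, for a BEN domain protein (chr10:43478626-43480108), the paired genes Dtl and Ints7 (chr1:191574850-191576331), Btbd10 (chr7:113368742-113370203) and Zzz3 (chr3:152395792-152397145). Zzz3, for a subunit of a histone acetylase complex, had CTCF peaks of 1473 and 1592 bp with the empty vector, against 1406 and 1355 bp in the knockout. Banp (chr8:121949874-121951241) was in 18 lists and Arf3, for a small GTPase (chr15:98762276-98763637), in 19. Tlk2, for a kinase of chromatin assembly (chr11:105180855-105182388), lay 12960 bp from the gene end and had no fibroblast CTCF peak. Its H3K27ac folds of 13.0 and 13.0 against 13.5 and 11.8 were among the highest of the 12.

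**Figure D4:**
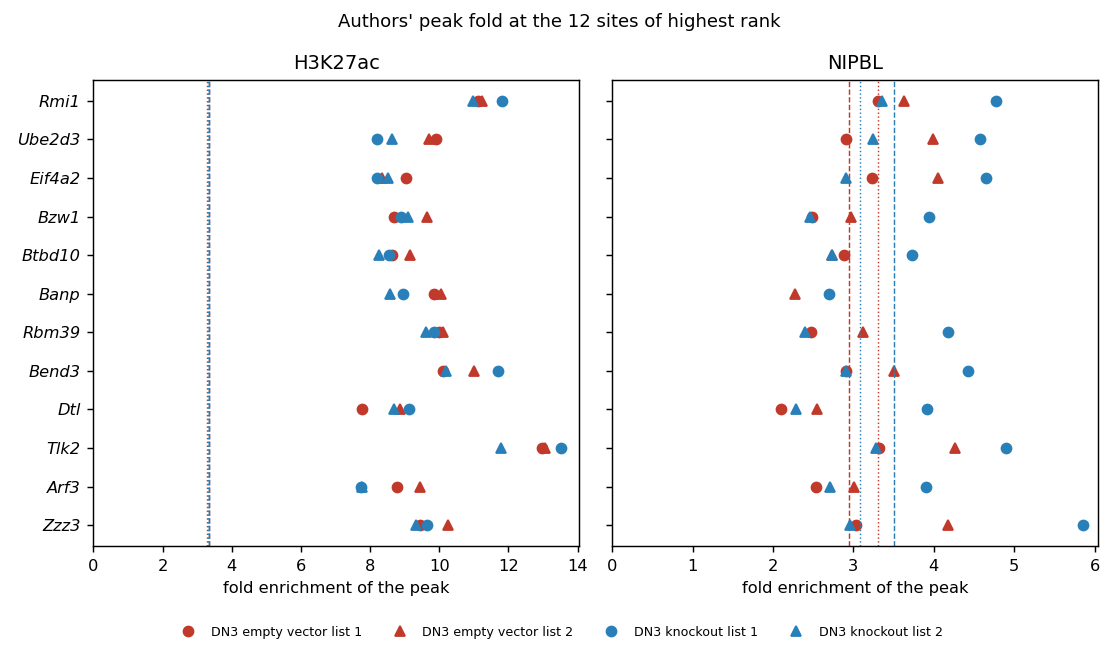
The authors' fold enrichment of the H3K27ac peak (left) and the NIPBL peak (right) at the 12 sites of highest rank, 1 point per DN3 list, red for the empty vector and blue for the knockout. Vertical lines mark the median fold of each whole list, dashed for list 1 and dotted for list 2. Every H3K27ac point lies above these medians, and the NIPBL points of knockout list 1 lie to the right of the other lists at every gene.

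CTCF in fibroblasts was called at more of the sites after TCF-1 was induced, as it was over all DN3 TCF-1 sites. Untreated lists held 774 sites (66.4%) and 823 (70.6%), and induced lists 994 (85.2%) and 913 (78.3%), so the conditions did not overlap. The means were 68.5% ± 2.97 and 81.8% ± 4.91 (SD, n = 2), a difference of 13.3 percentage points with the smallest p the lists allow (2-sided exact permutation, p = 0.333). Induced lists were longer over the whole genome, with 68306 and 64645 peaks against 38369 and 41236. At shared sites without CTCF in DN3 cells the mean share went from 8.06% to 19.3%, a difference of 11.3 points. At DN3 sites with CTCF and no fibroblast TCF-1 it went from 27.95% to 36.4%. Over all DN3 TCF-1 sites it went from 33.2% to 45.3%, a difference of 12.1 points, near that of the sites described here. The conditions did not overlap in these sets either. With lists held to equal length, by keeping the widest peaks, 1085 sites met the rule and the difference was 5.39 points, again without overlap between conditions.

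CTCF called in both induced lists and in neither untreated list was found at 72 sites (6.17%), and the opposite at 4 (0.343%). At equal list length the counts were 33 and 7. Of all merged fibroblast CTCF regions 21.2% were called only in cells with TCF-1 and 0.0504% only in cells lacking it, and of all DN3 TCF-1 sites 5.28% and 0.257%. The 6.17% thus lay under the share of all merged regions and near that of all DN3 TCF-1 sites. All 4 lists held 705 sites (60.5%), and none held 131 (11.2%). Of the 72 sites 61 (84.7%) lay within 1 kb of a gene end, beside 79.9% of all 1166 sites. Fibroblast SMC1 was called at 70 of the 72 untreated and 71 induced (97.2% and 98.6%), beside 98.8% and 99.0% of all 1166. The highest-ranked were at Qrich1 and Qars (chr9:108516510-108517845), with induced CTCF peaks of 386 and 285 bp, and at Kif5a and Dctn2, for a kinesin and a dynactin subunit (chr10:127265806-127267206), with 1268 and 1252 bp. Next came Ilvbl, Ttc19, Polr2e, for a subunit of RNA polymerases, and Gpatch3. The 4 sites with CTCF only in untreated cells were Rnf126 (4302 bp from the gene end), Gabpb1 (8385 bp), Ilrun, with peaks of 398 and 236 bp, and Nup54. SMC1 was called only in induced fibroblasts at 3 sites (0.257%), near Hpcal1, Arl14 and Rapgef1, and only in untreated ones at 1 (0.0858%), near Cdkal1. Over all merged fibroblast SMC1 regions these shares were 11.9% and 20.1%, and over all DN3 TCF-1 sites 1.45% and 0.708%.

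Sites with fibroblast CTCF also had the wider DN3 CTCF peaks. At the 705 sites in all 4 fibroblast lists the median width percentile of the DN3 CTCF peak was 89.7 and 92.9 in the 2 empty vector lists. At the 131 sites in none of the 4 it was 26.7 and 58.1, and at the 330 in 1 to 3 lists it was 49.8 and 75.4. Knockout CTCF lists held 99.3% and 98.4% of the 705, 80.9% and 63.4% of the 131, and 95.2% and 83.0% of the 330. A gene end lay within 1 kb of 78.7%, 73.3% and 85.2%. Sites without fibroblast CTCF thus had narrower DN3 CTCF peaks and were held less often by the knockout lists.

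CTCF in the knockout is touched by the rule, which asks for both empty vector lists, so these values are a description. The knockout lists held 1120 sites (96.1%) and 1051 (90.1%). Both held 1035, 101 were in 1 of them and 30 (2.57%) in neither, a difference between conditions of -6.90 points. At equal list length 64 of 1085 sites were in neither and the difference was -11.5 points. Of all merged DN3 CTCF regions 0.46% were called only in cells with TCF-1 and 6.36% only in cells lacking it, and of all DN3 TCF-1 sites 1.35% and 1.61%. Those sets also hold regions without CTCF in both empty vector lists, so the 2.57% is not on like terms with them. Of the 220 DN3 sites with CTCF in both lists and no fibroblast TCF-1, 12 (5.45%) were in neither knockout list. None of the sites can be called only without TCF-1. The 30 sites had narrow CTCF peaks with the empty vector, with median widths of 277 and 343.5 bp against 510 and 668 bp at the 1035. SMC1 and H3K27ac were called at all 30 in all 4 lists of each antibody, beside 99.6% and 98.3% of all 1166 sites. Of the 30, 25 (83.3%) lay within 1 kb of a gene end, beside 79.9% of all 1166. These shares were thus near those of all the sites.

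Kmt5b had the widest CTCF peaks of the 30 in both empty vector lists. At its site (chr19:3767643-3768412) CTCF peaks were 930 and 1643 bp wide with the empty vector and no peak was called in either knockout list. All 4 fibroblast lists had one, of 2246 and 2011 bp untreated and 2251 and 2049 bp induced. SMC1 peaks were 1972 and 2256 bp with the empty vector, against 2727 and 2483 bp in the knockout, and H3K27ac folds were 10.03 and 9.81 against 8.71 and 8.98. Its 3 CTCF cores are in the sequence above. Rps12, for a ribosomal protein (chr10:23787006-23787561), had CTCF peaks of 273 and 220 bp with the empty vector, and its SMC1 peaks were 1110 and 1389 bp against 1094 and 1015 bp. Rpl35 (chr2:39005000-39005519) had CTCF peaks of 671 and 480 bp. Rab21, for a GTPase of endosomes (chr10:115315044-115315651), Kbtbd2 (chr6:56797306-56797887) and Ube2j1, for a ubiquitin-conjugating enzyme (chr4:33031178-33031780), complete the 6 of highest rank. The Trp53 site (chr11:69580177-69580516) was also among the 30, with 237 and 465 bp with the empty vector. It was chosen after its values were seen.

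Of the 8 genes of the T lineage, T cell receptor and Wnt lists with a site, 4 had one in all 20 lists, beside 45.7% of all the sites. These were Tcf3 (chr10:80433358-80434444), Tle3 (chr9:61372197-61372951), Fyn (chr10:39369380-39370242) and Znrf3. The site of Myc was in 19, those of Tcf12 (chr9:72111629-72112200) and Ctnnb1 (chr9:120933138-120933902) in 17 and that of Tcf7 in 14. In the cohesin and CTCF list, Ctcf (chr8:105636082-105636520), Yy1 (chr12:108792611-108793322) and Pds5a (chr5:65697661-65698743) were in all 20 and Zfp143 in 18. Ctcf had H3K27ac folds of 13.1 and 11.97 with the empty vector, against 10.6 and 11.1 in the knockout, and its own promoter had CTCF peaks of 1120 and 1655 bp against 1577 and 1134 bp. Tle3 had H3K27ac folds of 13.6 and 13.7 against 14.0 and 13.5. These H3K27ac folds all lay above the medians of their lists.

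The sites were not spread evenly over the chromosomes. Chromosome 10 held 175 of them (15.01%), chromosome 1 held 135 (11.6%) and chromosome 15 held 93 (7.98%). These 3 chromosomes together held 403 sites (34.6%), beside 13.6% of the protein-coding genes and 12.7% of the shared sites without CTCF. Of the shared TCF-1 sites there, 64.0% of 630 had CTCF in both lists, against 42.7% of 1786 elsewhere. The chromosomes were picked after their values were seen. They held 32.5% and 33.9% of the DN3 TCF-1 peaks, 19.97 to 21.9% of the DN3 SMC1 peaks and 16.5 to 18.6% of the other lists. Copy number was not analysed here, and its part in the result was not tested. Sites on the 3 chromosomes and elsewhere were at gene ends at like shares, 80.6% and 79.6%. Untreated fibroblast CTCF held 59.8% and 64.0% of the sites on them against 69.9% and 74.0% elsewhere. Clusters with neighbours within 100 kb reached 13 sites at 3 places, chr10:79925348-80292946, chr10:128211689-128705233 and chr15:76198137-76723038, while 760 sites had no neighbour that close.

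**Figure D5:**
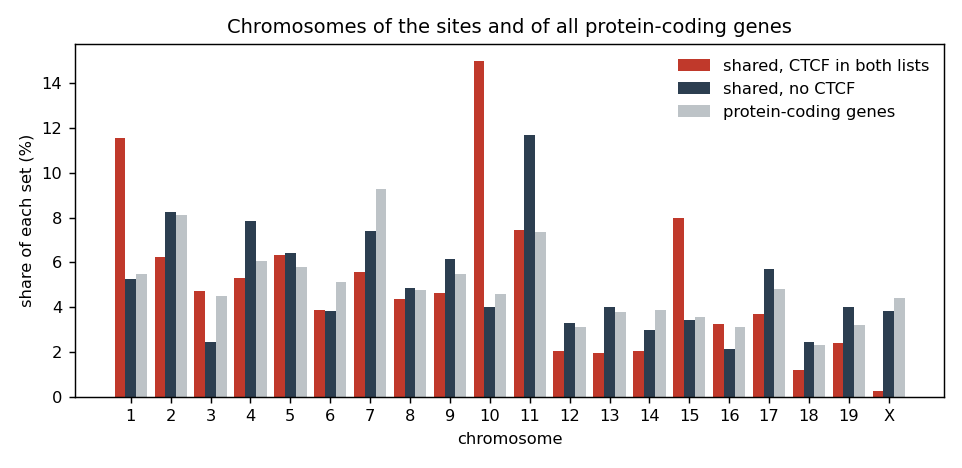
Percentage of each set on each chromosome, with red bars for the sites, dark bars for the shared TCF-1 sites without CTCF and grey bars for protein-coding genes. The red bars of chromosomes 10 (15.01%), 1 (11.6%) and 15 (7.98%) are higher than the other bars of the same chromosomes.

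The rule has edges at an overlap of 1 bp. Just inside, the smallest overlaps were 4 bp with the fibroblast TCF-1 peak (near Nr3c2), 4 bp with the first CTCF list (at Ercc5 and Irf2bp2) and 2 bp with the second (at Epc2). The median overlaps were 441, 342.5 and 401 bp, and 3, 16 and 4 sites had under 50 bp. Just outside, the nearest gaps were 2 bp to fibroblast TCF-1 (Letm1), 2 bp to the first CTCF list (Wbp4) and 23 bp to the second (Tln2).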

How the data were processed

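Chromatin was crosslinked with 1% formaldehyde and NEBNext Ultra II libraries were sequenced in pairs, per the labels' protocols. Bowtie2, MACS2, bedtools and the mm10 build are named per the submitters' processing notes, while versions and settings were not given in the sources used here. Each of the 25 samples has its own peak list. For CTCF, SMC1 and TCF-1 the authors deposited positions only, on mm10, so the width of a peak stands in for its strength. For NIPBL and H3K27ac the authors deposited a score, a fold enrichment and −log10 p-values and q-values per peak, all −log10 q-values above 1. Folds are the authors' own and describe peaks within a list only.

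The sites, gene lists and rules were chosen with earlier results of these data known. Lists were merged with a gap of 0 bp and overlaps counted from 1 bp, which bedtools 2.31.1 matched (1166 sites), and the code was tested on simulated data. Conditions were compared over lists with 2-sided exact permutation tests, for which 2 lists against 2 cannot go below p = 0.333. "Only with TCF-1" means every list of the condition with TCF-1 and no list of the other. Genes are RefSeq protein-coding genes of GRCm38.p6, without strand, so distances are to either end. Annotated starts came from the promoter table, which covers 17492 of 21900 genes (79.9%). The letters of CTCF (long), NRF1, YY1 and ZNF143 were shortened after a first look at their counts. Sites named were the 12 of highest rank, up to 6 per direction called in 1 condition only, list genes with a site (up to 5 per list, 1 of which is not reported here), the genes with most sites, and Tcf7. Others were chosen after their values were seen. Computation used python 3.11.15, numpy 2.4.6, pandas 2.3.3 and matplotlib 3.10.9. Alternatives were an overlap of 50%, peaks at or above the median strength of their list, equal list length, merging across 500 bp, either list for TCF-1 or CTCF, other distances, leaving out each list, and a replicate block. The cut at the median strength was not applied to the TCF-1 lists. Leaving out chromosomes 1, 10 and 15 was chosen after seeing the data.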

Additional observations from a re-analysis of the deposited data

How the results depend on the processing

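Where an alternative itself removes sites or peaks, fewer were counted, and otherwise the cause of a change was not tested. The number of sites was 758 with a 50% overlap, 772 above the median strength (with TCF-1 lists left uncut), 1919 with TCF-1 in either list, 1715 with CTCF in either list and 763 without chromosomes 1, 10 and 15. The share at a gene end was 89.0% within 5 kb, 75.4% within 0.5 kb and 77.0% with TCF-1 in either list. The share in all lists was 33.5% with a 50% overlap, 29.7% above the median, 40.8% at equal length, 32.4% with CTCF in either list and 48.9% without the 3 chromosomes. In percentage points, the NIPBL difference was -0.343 without empty vector list 1. The H3K27ac difference was -0.066 with a 50% overlap, -0.0648 above the median and -0.13 with TCF-1 in either list. The fibroblast SMC1 difference was -0.518 above the median, the DN3 SMC1 difference 0.0292 with CTCF in either list, and the DN3 CTCF difference -11.5 at equal length against -6.90. Also at equal length, the fibroblast CTCF difference was 5.39 against 13.3 and the NIPBL difference 3.27 against 7.29, and above the median NIPBL was 14.96.

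Counts called in 1 condition only moved as follows. With a 50% overlap they were 11 for NIPBL without TCF-1, 3 for H3K27ac with it, 0 for fibroblast CTCF without it and 5 for fibroblast SMC1 with it. Above the median they were 13 for NIPBL without TCF-1, 2 and 1 for H3K27ac with and without it, 1 for DN3 SMC1 with it, 42 and 0 for fibroblast CTCF, and 5 and 9 for fibroblast SMC1. At equal length they were 3 and 13 for NIPBL, 64 for DN3 CTCF with TCF-1, and 33 and 7 for fibroblast CTCF. Merging across 500 bp gave 1 for NIPBL without TCF-1. With TCF-1 in either list they were 16 for NIPBL without TCF-1, 2 for H3K27ac with it, 55 for DN3 CTCF with it, 120 for fibroblast CTCF with it, and 5 and 2 for fibroblast SMC1. This setting gave 1919 sites against 1166, so higher counts there need not be higher shares. Counting gene bodies extended by 10 kb gave 2 T cell receptor genes, 1 Notch, 3 B lineage, 4 housekeeping and 14 oxidative phosphorylation genes.

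Leaving out 1 list at a time, the share in all lists ran from 45.7 to 53.6%, the NIPBL difference from -0.343 to 14.9, H3K27ac from 0.0858 to 0.343, DN3 SMC1 from -0.214 to -0.0429, fibroblast CTCF from 9.82 to 16.8 and DN3 CTCF from -9.86 to -3.95. Replicate numbers are shared by the conditions, but no label says that they mark a batch. With a replicate block the differences were the same (NIPBL 7.29, H3K27ac 0.214, DN3 SMC1 -0.129, fibroblast CTCF 13.3), with exact sign-flip p-values of 1, 0.5, 1 and 0.5, the smallest that 2 pairs allow being 0.5. Unknown depth limits every statement on a missing peak.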
